A study of Mus musculus with 36 samples.

Results

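The comparison described here set the atria of CUG960 mice that received an MBNL2 vector while the repeat RNA stayed on against the atria of CUG960 mice in which the repeat RNA was withdrawn. CUG960 mice are a heart model of myotonic dystrophy type 1 (DM1) with the genotype TREDT960I (Hom)/MHCrtTA (Hem). Doxycycline (dox) activates a reverse transactivator that is made from the α-MHC promoter. The transactivator in turn switches on TREDT960I, whose human DMPK transcript holds the interrupted CTG repeat. The repeat RNA is therefore induced in cardiomyocytes and not in the other cells of the atrium. All mice were 21 weeks old when tissue was taken. MBNL2 mice (labelled on dox with 3XMYC-MBNL2) were fed dox from postnatal day 1 and received, at 9 weeks, AAV9 carrying a MYC-tagged human MBNL2 cDNA behind the human TNNT2 promoter. Mice of the +/–dox cohort (labelled on/off dox) were fed dox from postnatal day 1 and taken off it at 9 weeks, and received no vector. The libraries were assigned by their sample labels and came to 6 of the 36 libraries of the series, 3 atrial libraries in each group, each labelled as a biological replicate. The remaining atrial cohorts served as reference points: +dox mice (repeat on, no vector), –dox mice (never induced), MBNL1 mice and MBNL1+MBNL2 mice (dox throughout, with a FLAG-tagged human MBNL1 vector alone or with both vectors). The +dox cohort of this series received no control vector, and +/–dox mice also differ from MBNL2 mice in their diet for the last 12 weeks, so that repeat RNA, dox, vector and MBNL2 protein cannot be told apart in this contrast.

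In DM1, RNA with expanded CUG repeats gathers in nuclear foci and binds the MBNL proteins, which leaves less MBNL free to guide alternative splicing, polyadenylation and RNA localisation in adult tissue. MBNL2 and MBNL1 bind related sequence motifs and share many targets. The atria set the pace and first spread of the heartbeat, secrete natriuretic peptides, and are a common site of arrhythmia in people with DM1. Withdrawal of the repeat RNA was used in the study as the reference for the fullest reversal, and the comparison below asks which atrial mRNAs in MBNL2 mice had not come to the level seen after withdrawal.

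Chamber markers matched the tissue labels. In the 6 libraries the atrial light chain Myl7 was at 9980 to 14000 TPM and the atrial peptide Bmp10 at 413 to 648 TPM, against at most 231 and 2.73 TPM in the ventricular libraries. The ventricular transcription factor Irx4 was at 0.01 to 0.22 TPM. The 6 libraries held 55 to 79.6 M expected counts each. Replicates 1 and 2 of both groups carry library names of one number series and replicate 3 of both groups of another. Replicate 3 was also the only library with Xist in either group (30.3 TPM in MBNL2 and 41.2 TPM in +/–dox), so that sex and name series were balanced between the groups and cannot be told apart from each other. No pair of replicates agreed within sampling noise. Because atria were measured whole, fewer cells of a type and less RNA per cell cannot be told apart in any result below.

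MBNL2 and +/–dox atria differed in 623 of 19231 genes tested (3.24%), of which 309 were higher (1.61%) and 314 lower (1.63%) in MBNL2 mice. The 3.24% is the share to set beside the share called in each list of genes below. A call required both a 1.5-fold difference and a Benjamini-Hochberg adjusted p under 0.05 in edgeR's quasi-likelihood test, from which all adjusted p-values come. Most differences were moderate: 121 of the higher and 112 of the lower genes reached a fold change of 2, and the median log2 fold change was 0.86 in the higher and -0.85 in the lower genes. The 3 libraries of each group did not overlap in 608 of the 623 genes, beside 32.9% of all tested genes. MBNL2 replicate 1 carried a good share of the calls, since 396 genes were called without it and 477 to 666 when another of the 6 libraries was left out. By contrast, MBNL2 and +dox atria, which differ in the vector alone, differed in 1 gene, Ckmt2 (0.0052%), with 831 genes at an unadjusted p below 0.05. DESeq2 called 9 genes in this comparison. The 95% interval of the difference lay within 1.5-fold of +dox in 10623 genes (55.2%), and in the other 8607 the data did not decide. Withdrawal itself moved 767 genes (3.99%) between +/–dox and +dox atria. These comparisons share libraries with the main one, so their counts are given side by side only.

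A measure of the repeat effect that shares no library with the MBNL2 against +/–dox contrast was available from +dox against –dox atria, in which 1005 genes (5.23%) were called, 461 higher (2.4%) and 544 lower (2.83%) in +dox. Of the 623 genes, 364 were among these 1005, which is 58.4% of the former and 36.2% of the latter. In all 364 the MBNL2 atria lay on the +dox side of the withdrawal level, 194 higher and 170 lower. Direction was shared by 605 of the 623 genes (97.1%), by 241 of the 259 that were not called for the repeat (93.1%), and by 14215 of all 19231 genes (73.9%). Across all tested genes the log2 fold changes of the 2 comparisons had a Pearson's r of 0.40 and a Spearman's rho of 0.54, where genes are not independent replicates.

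**Figure D1:**
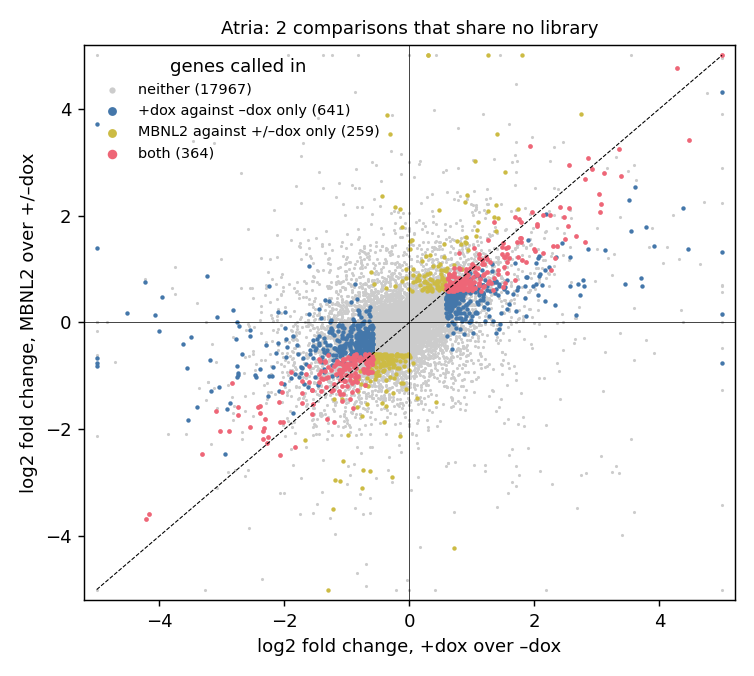
Each point is 1 of 19231 genes in the atria, with the log2 fold change of +dox over –dox on the horizontal axis and of MBNL2 over +/–dox on the vertical axis; values beyond 5 are drawn at the edge and the dashed line marks equal values. The 364 genes called in both comparisons all have the same sign on both axes.

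To give the size of what remained, the MBNL2 over +/–dox log2 fold change of each repeat-responsive gene was divided by its +dox over –dox log2 fold change, so that 0% is the level of withdrawal and 100% a gap as large as the whole repeat effect. The median over the 1005 genes was 61.6%, with quartiles of 38.7 and 83.0%, and the 3 MBNL2 libraries taken singly gave 61.2, 73.0 and 55.3%. The genes were chosen for a large divisor, which favours a low percentage. The gap is also measured from withdrawal, and +/–dox libraries themselves averaged 18.8 on a scale from 0 (–dox) to 100 (+dox). The median was 65.3% for genes higher in +dox and 57.3% for genes lower in +dox. The MBNL1 and MBNL1+MBNL2 cohorts, set against the same +/–dox libraries, had medians of 46.3 and 48.3%. By class, 364 of the 1005 genes were apart from withdrawal, 85 had a 95% interval within 1.5-fold of the withdrawal level, and 556 were undecided. No gene was called on the far side of withdrawal.

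Placed on a scale from 0 (mean of –dox) to 100 (mean of +dox) over the same 1005 genes, MBNL2 libraries were at 81.8 ± 8.34 (SD, n = 3; 74.7 to 91.0) and +/–dox libraries at 18.8 ± 4.67 (13.4 to 21.8). MBNL1 libraries were at 67.2 ± 7.40 (58.6 to 71.7) and MBNL1+MBNL2 libraries at 68.9 ± 3.13 (65.4 to 71.3). MBNL2 libraries overlapped with none of these 3 cohorts. An exact two-sided permutation test of 3 against 3 libraries cannot go below p = 0.1, the value of each of the 3 differences, and so it cannot rank the cohorts on this scale. The ends of the scale were set by the libraries that chose the genes, and the positions of +dox and –dox are not findings.

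**Figure D2:**
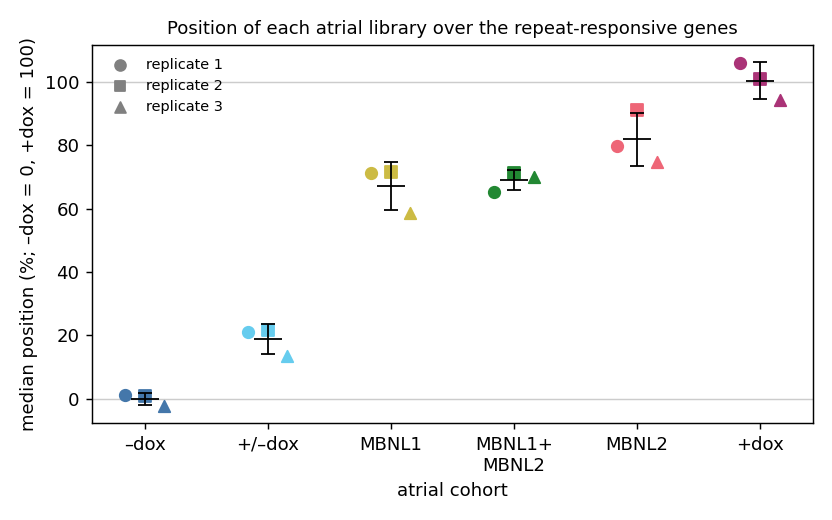
Median position of each atrial library over the 1005 repeat-responsive genes, in percent of the way from the –dox mean to the +dox mean, with 1 symbol per library and the mean ± SD (n = 3) of each cohort. The 3 MBNL2 libraries sit between 74.7 and 91.0, above every +/–dox, MBNL1 and MBNL1+MBNL2 library.

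Among named genes with a mean of at least 1 CPM and no overlap between the groups, the largest rise was that of Vxn (vexin, a regulator of neuronal differentiation). Vxn (ENSMUSG00000067879.3, chromosome 1 of GRCm38, 9601199 to 9627143) was at 31.5, 33.1 and 37.2 CPM (TMM-normalized counts scaled to library size, replicates 1 to 3 in order) in MBNL2 atria and at 4.84, 5.54 and 4.18 CPM in +/–dox atria. The log2 fold change was 2.81 ± 0.13 (SE, adjusted p = 2.50e-16), the groups lay far apart, and +dox atria held 28.7 to 31.2 CPM. Rimkla, an enzyme that joins glutamate to N-acetylaspartate, was at 13.4, 16.5 and 14.4 CPM in MBNL2 and 2.79, 2.27 and 1.83 CPM in +/–dox atria, a log2 fold change of 2.69 ± 0.24 (adjusted p = 7.34e-09). Cited1, a co-regulator that binds CBP and p300, was at 7.52, 8.35 and 6.63 CPM in MBNL2 and 1.23, 1.04 and 1.08 CPM in +/–dox atria (2.75 ± 0.40, adjusted p = 2.85e-05). For both genes the 3 MBNL2 libraries were close to the +dox level, which was 16.8 ± 0.36 CPM for Rimkla and 9.39 ± 1.38 CPM for Cited1.

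Shank2, a scaffold protein of synapses, was at 12.9, 12.0 and 8.61 CPM in MBNL2 atria and at 2.46, 2.66 and 2.38 CPM in +/–dox atria (log2 fold change 2.16 ± 0.45, adjusted p = 0.00204). Vdr, the vitamin D receptor, which was chosen after its values were seen, was at 51.3, 57.7 and 58.6 CPM against 15.8, 14.7 and 17.3 CPM (1.81 ± 0.21, adjusted p = 1.43e-06).

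Of the other members of the 12 largest rises, some lost their call when 1 library was left out and Ogdhl did not. Ogdhl, a relative of the E1 subunit of 2-oxoglutarate dehydrogenase, was at 75, 62.3 and 29.2 CPM in MBNL2 atria and 17.3, 13.6 and 8.31 CPM in +/–dox atria (2.09 ± 0.45, adjusted p = 0.00313), and its +dox libraries spread as widely, from 16.8 to 58.9 CPM. Colq, the collagen tail that anchors acetylcholinesterase, was at 5.98, 3.86 and 1.25 CPM against 0.92, 0.55 and 1.13 CPM, and its call (adjusted p = 0.00623) was lost without MBNL2 replicate 1 (adjusted p = 0.0704). Sult4a1, a brain-type sulfotransferase, had a log2 fold change of 2.40 (adjusted p = 0.0106) and lost its call without MBNL2 replicate 2 (0.0700) or +/–dox replicate 1 (0.0604) or 3 (0.0644). Bpifb1, a secreted lipid-binding protein of airway epithelium, was called at 2.02 (adjusted p = 0.0153) and lost the call without MBNL2 replicate 1 (0.0579) or 2 (0.0610) or +/–dox replicate 1 (0.0514) or 3 (0.0965). Kcnj14, Atf3, Ifi44 and Irf7 completed the 12 and are described with their groups.

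By the same rule, the largest fall was that of Cdnf. Cdnf (ENSMUSG00000039496.8, chromosome 2, 3513030 to 3526376) encodes cerebral dopamine neurotrophic factor, a protein of the endoplasmic reticulum (ER). It was at 4.77, 4.06 and 4.93 CPM in MBNL2 atria and at 25.5, 26.6 and 23.7 CPM in +/–dox atria, a log2 fold change of -2.46 ± 0.23 (adjusted p = 3.03e-08). The +/–dox libraries matched the –dox libraries, which held 23.1 to 27.4 CPM, and the +dox libraries held 2.38 to 2.67 CPM. Cdnf was also the single gene called between MBNL2 and MBNL1 atria (0.0052% of tested genes; 1109 genes at an unadjusted p below 0.05, and 7 called by DESeq2). MBNL1 atria held 13.1 ± 2.62 CPM, and MBNL2 atria were lower by a log2 fold change of -1.52 (adjusted p = 0.00443), although that count of genes was 0 without MBNL2 replicate 1. In MBNL1+MBNL2 atria Cdnf was at 12.6 ± 2.7 CPM.

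Coq8a, a mitochondrial kinase-like protein needed for coenzyme Q synthesis, was at 110, 87.8 and 86.1 CPM in MBNL2 atria and at 390, 410 and 364 CPM in +/–dox atria (-2.04 ± 0.18, adjusted p = 2.30e-08). With 164 ± 2.80 CPM in MBNL1 and 67.8 ± 4.93 CPM in +dox atria, the MBNL2 libraries lay below the MBNL1 mean, a difference between the vectors that did not pass (-0.79, adjusted p = 0.225). The Coq8a locus overlaps Cdc42bpa on the opposite strand, and whether counting used strand is not given in the sources used here. Lad1, an anchoring filament protein, was at 6.69, 6.44 and 10.4 CPM against 28.6, 35.6 and 28.9 CPM (-1.98 ± 0.25, adjusted p = 6.56e-06). Clcn1, the chloride channel of skeletal muscle whose splicing defect causes myotonia in DM1, was at 2.62, 3.29 and 5.28 CPM against 13.7, 14.2 and 15.6 CPM (-1.96 ± 0.22, adjusted p = 3.12e-07). In all of these genes the highest MBNL2 library was below the lowest +/–dox library by more than 2-fold, and their calls were kept whichever of the 6 libraries was left out.

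Pnmt, the last enzyme of adrenaline synthesis, was at 0.79, 0.85 and 0.71 CPM in MBNL2 atria and at 2.58, 3.62 and 2.36 CPM in +/–dox atria (-1.87 ± 0.31, adjusted p = 0.000149). Bcl6, a transcriptional repressor, was at 12.1, 7.20 and 14.4 CPM against 31.0, 38.4 and 32.2 CPM (-1.60 ± 0.32, adjusted p = 0.00146). The +/–dox level of Bcl6 was above that of –dox atria, where it was 18.1 ± 5.54 CPM. Mfsd4b1, of the sodium-dependent glucose transporters, was at 1.04, 0.88 and 1.17 CPM against 3.44, 3.06 and 2.80 CPM (adjusted p = 4.35e-06), and Erich3, a protein of cilia, at 0.41, 0.64 and 0.59 CPM against 1.73, 1.43 and 1.74 CPM (adjusted p = 0.00371). The calls of Lypd1 (-1.53, adjusted p = 0.0196) and Stmnd1 (-1.59, adjusted p = 0.0346) were less firm. Leaving out 1 library ended the call of Lypd1 in 4 of 6 fits (MBNL2 replicates 1 and 2, +/–dox replicates 1 and 2; adjusted p up to 0.113) and that of Stmnd1 in 5 of 6, all except +/–dox replicate 1 (adjusted p up to 0.128).

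**Figure D3:**
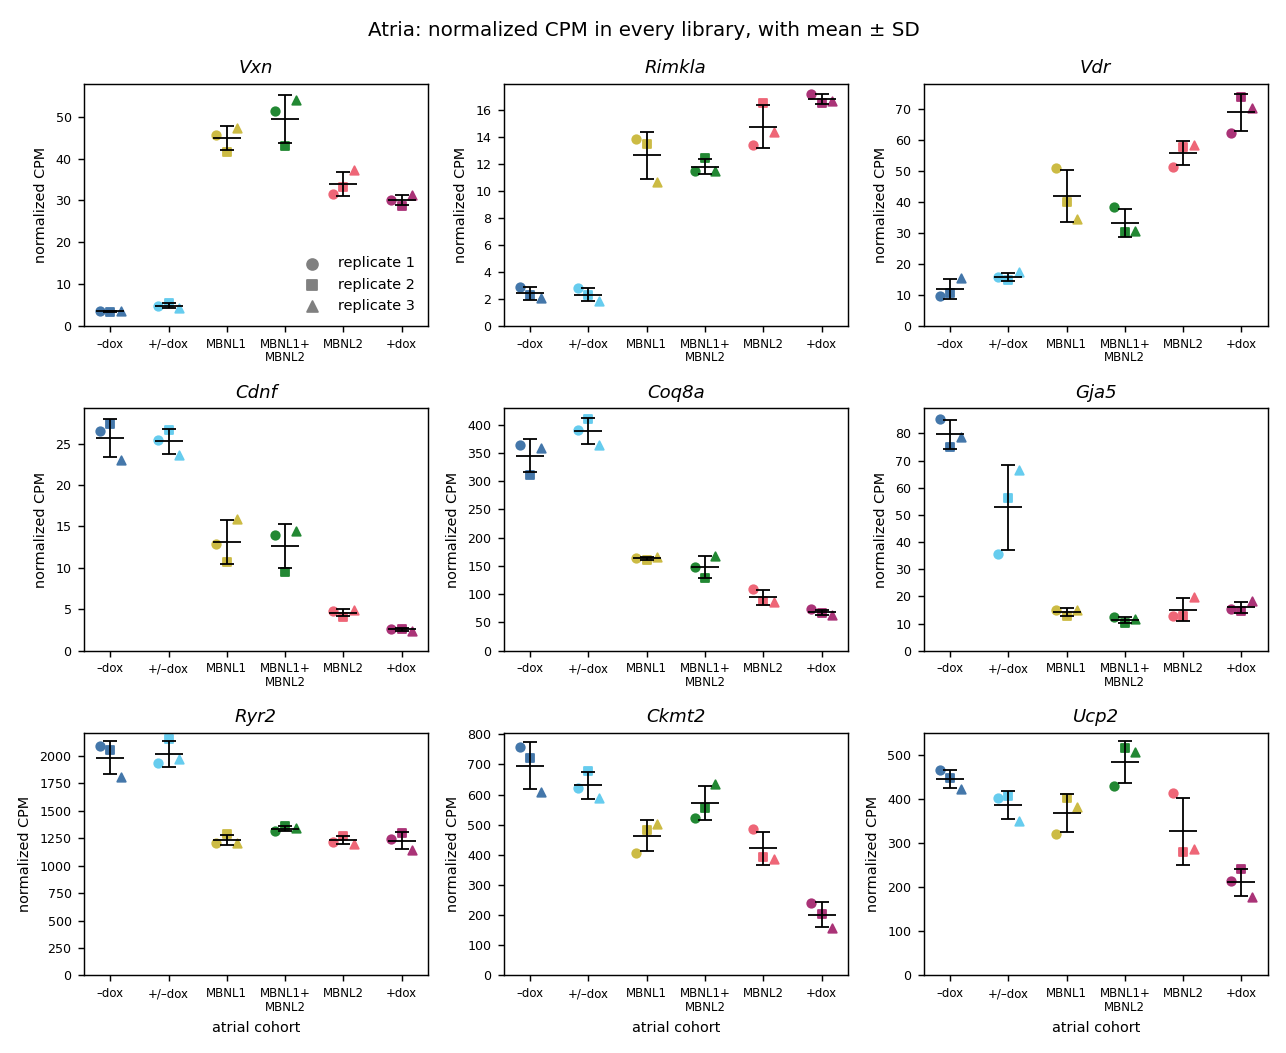
TMM-normalized CPM in every atrial library for 9 genes, with 1 symbol per library and the mean ± SD (n = 3) of each cohort; each vertical axis starts at 0. In Vxn, Rimkla, Vdr, Cdnf, Coq8a, Gja5 and Ryr2 the MBNL2 libraries stand apart from +/–dox and nearer to +dox. Those of Vdr, Cdnf and Coq8a lie between both cohorts. In Ckmt2 the MBNL2 libraries lie between both as well, and in Ucp2 they overlap with +/–dox.

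The MBNL genes themselves were not called. Reads of the human MBNL2 cDNA can count towards mouse Mbnl2 only where they also fit the mouse sequence. Mbnl2 (ENSMUSG00000022139.17, chromosome 14, 120275669 to 120431697) was at 354, 327 and 325 CPM in MBNL2 atria and at 249, 259 and 232 CPM in +/–dox atria, a log2 fold change of 0.44 ± 0.09 (adjusted p = 0.00138), which is under the 1.5-fold limit. The groups did not overlap, and +dox atria without vector were at 294 to 325 CPM. Mbnl1 was at 166 to 171 CPM in MBNL2 and 158 to 167 CPM in +/–dox atria (0.04 ± 0.09, adjusted p = 0.825). Mbnl3 was near the floor of detection, with at most 0.21 CPM in any of the 6 libraries. The mouse Dmpk gene was at 524 to 559 CPM in MBNL2 and 446 to 504 CPM in +/–dox atria (0.17 ± 0.09, adjusted p = 0.225), and the repeat transgene has no row of its own in the table. None of 41 splicing regulators tested was called, with log2 fold changes between -0.54 and 0.44.

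Genes of calcium release were split in direction. Of 29 tested, 3 were called (10.3%, beside 3.24% of all genes), Ryr2 and Pln lower and Casq2 higher, and the median log2 fold change was -0.01 beside -0.02 over all genes. Ryr2 (ENSMUSG00000021313.16, chromosome 13, 11553102 to 12106945), the ryanodine receptor that releases calcium from the sarcoplasmic reticulum, was at 1218, 1270 and 1200 CPM in MBNL2 atria and at 1932, 2156 and 1970 CPM in +/–dox atria (-0.72 ± 0.07, adjusted p = 3.03e-08). The gap was 103% of the repeat effect, and +dox atria held 1141 to 1299 CPM. MBNL1 atria held 1235 ± 47.1 CPM, a log2 fold change of -0.01 between the vectors (adjusted p = 1). Pln, phospholamban, which restrains the calcium pump, was at 1036, 896 and 749 CPM against 1472, 1493 and 1265 CPM (-0.66 ± 0.11, adjusted p = 0.000115), and without MBNL2 replicate 3 its log2 fold change of -0.54 was under the limit (adjusted p = 0.00217).

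Casq2, calsequestrin, which stores calcium, was at 987, 1085 and 884 CPM against 641, 686 and 637 CPM (0.59 ± 0.13, adjusted p = 0.00281). Casq2 stood at the limit of 1.5-fold, and without MBNL2 replicate 2 or +/–dox replicate 1 or 3 its log2 fold change was 0.51 to 0.58. It was also 0.58 with the replicate number as a block or the name series as a covariate. Asph, whose locus also encodes junctin and junctate of the release complex, was at 431, 432 and 367 CPM against 292, 306 and 282 CPM, a log2 fold change of 0.48 ± 0.09 (adjusted p = 0.000310) that did not reach 1.5-fold. Asph values can mix the products of this locus. The calcium pump Atp2a2 was at 12660 to 13165 CPM in MBNL2 and 15697 to 18937 CPM in +/–dox atria, a log2 fold change of -0.41 (adjusted p = 0.00138), again without overlap and under the limit.

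The conduction gene Gja5 was among the largest falls by the rule used for Cdnf. Gja5 (ENSMUSG00000057123.14, chromosome 3, 96904693 to 97077416), connexin 40, the main gap junction protein of atrial muscle, was at 12.7, 12.9 and 19.9 CPM in MBNL2 atria. It was at 35.8, 56.1 and 66.5 CPM in +/–dox atria, a log2 fold change of -1.80 ± 0.21 (adjusted p = 1.92e-06). All MBNL2 libraries lay within 12.7 to 19.9 CPM, close to the 14.5 to 18.3 CPM of +dox, and the +/–dox libraries lay between these and the 74.9 to 85.5 CPM of –dox. Gja5 was the only one of 19 connexin and intercalated disc genes to be called (5.26%), close to the share of all genes tested (3.24%). The ventricular-type connexin gene Gja1 was at 243 to 252 CPM in MBNL2 and 336 to 411 CPM in +/–dox atria (-0.58 ± 0.11, adjusted p = 0.000796), just under the limit. The Gja5 locus overlaps other genes on the opposite strand.

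Of 20 sodium, calcium, chloride and pacemaker channel genes tested, 5 were called (25%), 3 higher and 2 lower. Besides Clcn1, the lower gene was Scn10a, a sodium channel of sensory neurons that is also linked to cardiac conduction, at 4.31, 4.33 and 5.26 CPM against 10.6, 13.8 and 10.03 CPM (-1.31 ± 0.29, adjusted p = 0.00344). The β-subunit gene Scn4b was at 60.5, 53.6 and 39.1 CPM against 22, 23.9 and 16.1 CPM (1.31 ± 0.27, adjusted p = 0.00203). Cacna1d, the calcium channel Cav1.3 of atrial and pacemaker cells, was at 44.3, 53.9 and 47.3 CPM against 24.9, 27.3 and 23.5 CPM (0.94 ± 0.13, adjusted p = 1.43e-05). Cacna1s, the calcium channel of skeletal muscle, was at 4.31, 2.68 and 2.50 CPM against 2.21, 1.97 and 1.64 CPM, and its call (adjusted p = 0.0314) was lost without MBNL2 replicate 1 (0.314) or +/–dox replicate 2 (0.0715) or 3 (0.150).

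Hcn4, the pacemaker channel of the sinoatrial node, was at 14.8, 22.3 and 17.0 CPM against 2.99, 6.99 and 7.89 CPM. Its groups did not overlap, but the log2 fold change of 1.59 ± 0.54 did not pass (adjusted p = 0.0584), and –dox libraries ranged from 2.88 to 15.5 CPM. The summed CPM of 8 sinoatrial markers was 123 to 155 in MBNL2, 79.0 to 93.9 in +/–dox and 136 to 171 in +dox atria. Only 3 of the 8 log2 fold changes over +/–dox were above 0, with a median of -0.03, so the markers did not rise as a set. Of these markers Cacna1d alone was called, and the part of dissection in Hcn4 was not tested.

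Potassium channel genes gave 4 calls among 24 tested (16.7%). Kcnip2, the subunit of the fast transient outward current, was at 9.75, 10.3 and 10.4 CPM against 13.6, 15.3 and 17.2 CPM (-0.60 ± 0.19, adjusted p = 0.0413). That call was lost in each of the 6 fits that left out 1 library (adjusted p up to 0.165). The 3 higher genes were expressed at low levels. Kcnj14, the inward rectifier Kir2.4, was at 4.23, 3.17 and 1.51 CPM against 0.86, 0.84 and 0.46 CPM (2.06, adjusted p = 0.0143), and was not called without MBNL2 replicate 1 (0.0908) or +/–dox replicate 3 (0.0836). Kcnk1, a leak channel, was at 0.40 to 0.88 CPM against 0.11 to 0.21 CPM (2.21, adjusted p = 0.0306), a call that was kept only in the fit without MBNL2 replicate 3 (adjusted p up to 0.117 in the other 5). Kcne1, the minK subunit, was at 0.13 to 0.39 CPM against 0.01 to 0.03 CPM (3.53, adjusted p = 0.00619), and lost its call without MBNL2 replicate 1 (0.0550). Kcna4, an outward channel gene that was called for the repeat, was at 7.97, 10.3 and 8.59 CPM against 6.69, 6.34 and 6.67 CPM (0.45 ± 0.17, adjusted p = 0.0818) and stayed undecided.

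The mitochondrial creatine kinase gene Ckmt2 (ENSMUSG00000021622.3, chromosome 13, 91853387 to 91876885), which feeds the creatine phosphate shuttle, was the one gene that edgeR called between MBNL2 and +dox atria. It was at 485, 393 and 386 CPM in MBNL2 atria, 623, 680 and 590 CPM in +/–dox atria and 242, 205 and 159 CPM in +dox atria. The MBNL2 libraries were therefore above all +dox libraries (log2 fold change 1.06 ± 0.11, adjusted p = 3.44e-06) and below all +/–dox libraries (-0.58 ± 0.11, adjusted p = 0.000806). The second difference was a fold change of 1.50 when rounded and fell just short of the limit, and the remaining gap was 32.6% of the repeat effect. In MBNL1 and MBNL1+MBNL2 atria Ckmt2 was at 464 ± 50.9 and 572 ± 56.9 CPM. None of the 7 creatine shuttle genes was called between MBNL2 and +/–dox.

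Natriuretic peptide processing showed 3 calls among 10 genes tested (30.0%). Corin, the protease that cleaves the atrial peptide precursor, was at 239, 209 and 231 CPM in MBNL2 and 360, 390 and 346 CPM in +/–dox atria (-0.69 ± 0.13, adjusted p = 0.000796). Furin, a proprotein convertase, was at 261, 256 and 243 CPM against 159, 166 and 159 CPM (0.65 ± 0.10, adjusted p = 8.99e-05), so that 2 proteases of the same pathway moved in opposite directions. Mme, neprilysin, which degrades the peptides, was at 5.46, 6.66 and 6.79 CPM against 13.8, 10.3 and 10.8 CPM (-0.88 ± 0.16, adjusted p = 0.000585). The peptide gene Nppa itself was at 7736 to 11649 CPM in MBNL2 and 12659 to 14237 CPM in +/–dox atria without passing the test (-0.44 ± 0.50, adjusted p = 0.652).

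None of 28 sarcomere and Z-disc genes of cardiac muscle was called. Log2 fold changes ran from -0.77 to 0.31 with a median of -0.26, and 7 were above 0. Their summed level was 66400 to 75500 CPM in MBNL2, 81700 to 91900 CPM in +/–dox and 68200 to 76500 CPM in +dox atria. Titin (Ttn), the molecular spring of the sarcomere, was at 5093 to 5777 CPM against 6776 to 7382 CPM (-0.41 ± 0.11, adjusted p = 0.0103). Markers of atrial cardiomyocytes lay in the same range, with 0 of 10 called, a median of -0.27 and a summed level of 20300 to 24800 CPM in MBNL2 against 27600 to 31100 CPM in +/–dox atria. Markers of ventricular cardiomyocytes, of which Pln was called (1 of 8, 12.5%), were all below 0 with a median of -0.41 and a summed level of 2120 to 2250 CPM against 3010 to 3220 CPM. Fibroblast markers were all below 0 as well (0 of 8 called, median -0.36, 4370 to 5260 CPM against 5910 to 6380 CPM). None of these summed levels overlapped between the groups, and the part of tissue composition in the muscle genes was not tested.

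Skeletal muscle genes gave 3 calls of 22 tested (13.6%), all lower, while 13 of the 22 were above 0 and the median was 0.04. Mybpc2, myosin-binding protein C of fast muscle, was at 8.51, 7.09 and 5.10 CPM against 20.3, 21.6 and 27.3 CPM (-1.74 ± 0.37, adjusted p = 0.00288). Here MBNL1 atria, at 12.9 ± 0.94 CPM, stood between MBNL2 and +/–dox, but the difference between the vectors did not pass (-0.90, adjusted p = 0.853). Myh14, a nonmuscle myosin heavy chain, was at 77.5, 75.3 and 70.5 CPM against 118, 131 and 109 CPM (-0.68 ± 0.13, adjusted p = 0.000774). Tnni2, fast troponin I, was at 0.20, 0.17 and 0.28 CPM against 0.39, 1.03 and 0.94 CPM, and its call (adjusted p = 0.0321) was lost without MBNL2 replicate 1 or 2 or +/–dox replicate 2 or 3 (adjusted p up to 0.124). Of the hypertrophy and fetal gene list 2 of 22 were called (9.09%, against 3.24% of all genes tested), and 1 of these calls did not hold when single libraries were left out. Nmrk2, a muscle kinase of NAD synthesis, was at 3.01, 2.64 and 3.60 CPM against 5.12, 7.15 and 7.72 CPM (-1.11 ± 0.26, adjusted p = 0.00429). Meox1, a homeobox factor, was at 12.2, 5.76 and 5.59 CPM against 3.03, 4.12 and 4.58 CPM (1.00, adjusted p = 0.0427), and its call was lost without MBNL2 replicate 1 (0.396) or any +/–dox replicate (0.0694 to 0.174).

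Outside the lists, 4 genes were chosen after their values were seen, 2 lower and 2 higher. Cmya5, a muscle scaffold protein of the Z-disc region, was at 891, 930 and 891 CPM against 1829, 1943 and 1466 CPM (-0.95 ± 0.11, adjusted p = 1.32e-06). Slc4a3, the cardiac chloride-bicarbonate exchanger AE3, was at 116, 112 and 137 CPM against 245, 260 and 229 CPM (-1.01 ± 0.10, adjusted p = 1.92e-08). Dstn, the actin-severing protein destrin, was at 393, 416 and 351 CPM against 180, 192 and 171 CPM (1.10 ± 0.15, adjusted p = 8.19e-06), and Mylk4, a myosin kinase, at 319, 358 and 248 CPM against 141, 143 and 169 CPM (1.03 ± 0.24, adjusted p = 0.00549). In all 4 genes the MBNL2 libraries were close to the +dox mean, with log2 differences from it between -0.22 and 0.11 and none called.

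There was no call among 77 nuclear genes of the respiratory chain (median log2 fold change -0.01), 13 genes of mitochondrial DNA (-0.04), 35 genes of glucose uptake and glycolysis (-0.01), 83 cytosolic ribosomal proteins (-0.12) or 78 mitochondrial ribosomal proteins (0.08). Of the cytosolic ribosomal proteins 8 were above 0, and their summed level of 11600 to 12300 CPM in MBNL2 did not overlap with the 12900 to 13900 CPM of +/–dox atria. Of 36 genes of fatty acid uptake and oxidation 3 were called (8.33%), all lower. Acot1, a thioesterase, was at 2.33, 1.86 and 2.48 CPM against 6.67, 4.68 and 4.83 CPM (-1.28 ± 0.39, adjusted p = 0.0314). Slc27a1, a fatty acid transporter, was at 91.9, 90.6 and 83.1 CPM against 148, 143 and 122 CPM (-0.64 ± 0.19, adjusted p = 0.0287). Both of these calls were fragile. The call of Acot1 was lost whichever of the 6 libraries was left out (adjusted p up to 0.127), and that of Slc27a1 without any library except +/–dox replicate 3 (up to 0.106).

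Stress pathways did not move as a block. Of 22 ER chaperone and unfolded protein response genes only Cdnf and Herpud1 were called (9.09%), both lower, and the median was 0.04. Herpud1, which serves ER-associated degradation, was at 167, 177 and 183 CPM in MBNL2 and 286, 325 and 247 CPM in +/–dox atria (-0.70 ± 0.10, adjusted p = 8.80e-06). Of 27 targets of ATF4, the transcription factor of the integrated stress response, 4 were called (14.8%), and the median was 0.03. Aldh18a1 and Aldh1l2, of proline synthesis and mitochondrial folate metabolism, were higher. Aldh18a1 was at 17.0, 17.2 and 15.7 CPM against 8.52, 9.80 and 9.89 CPM (0.82 ± 0.11, adjusted p = 8.93e-06). Aldh1l2 was at 90.3, 109 and 99.3 CPM against 60.8, 66 and 63.9 CPM (0.65 ± 0.15, adjusted p = 0.00455), with a log2 fold change of 0.58, under the limit, without MBNL2 replicate 2.

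Atf3, an early stress response factor, was at 25.9, 8.27 and 16.9 CPM against 5.32, 3.45 and 2.69 CPM (2.16 ± 0.64, adjusted p = 0.0283). Its call was lost without MBNL2 replicate 1 (0.150) or any +/–dox replicate (0.0506 to 0.120), and the –dox libraries ranged from 6.02 to 22.2 CPM. Cth, an enzyme that makes cysteine, was at 1.06 to 1.31 CPM against 1.95 to 2.29 CPM (-0.85, adjusted p = 0.0397), and its call was lost whichever library was left out (adjusted p up to 0.150). None of 16 small heat shock proteins and chaperones was called.

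Interferon-induced genes were the pathway list with the highest median, 0.80 in log2 fold change, and all 43 members tested had values above 0 (0.02 to 2.50). Of the 43, 6 were called (14.0%), all higher: Isg15, Irf7, Oas1a, Oasl1, Usp18 and Ifi44. Isg15, a ubiquitin-like protein, was at 6.41, 4.95 and 2.61 CPM in MBNL2 and 1.52, 1.00 and 2.00 CPM in +/–dox atria (1.63 ± 0.41, adjusted p = 0.00958). Irf7, the factor that amplifies type I interferon production, was at 21.1, 16.5 and 8.28 CPM against 3.34, 3.32 and 4.97 CPM (1.98 ± 0.51, adjusted p = 0.0119). Ifi44 was at 8.96, 6.04 and 2.36 CPM against 1.45, 0.43 and 1.92 CPM (2.19 ± 0.62, adjusted p = 0.0225). In each of these the groups did not overlap, yet MBNL2 replicate 3 was the lowest of its group and +/–dox replicate 3 the highest of its own.

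The interferon calls depended on 2 libraries. Without MBNL2 replicate 1 none of the list was called (Isg15 adjusted p = 0.0747, Irf7 0.0727, Ifi44 0.134, Oas1a 0.167, Oasl1 0.190, Usp18 0.113), and without +/–dox replicate 2 again none (Isg15 0.0589, Irf7 0.0526, Ifi44 0.107, Oas1a 0.0949, Oasl1 0.0704, Usp18 0.0892). Without +/–dox replicate 1, 2 were called, and without MBNL2 replicate 3, 10. The summed level of the list was 442 to 617 CPM in MBNL2, 267 to 453 CPM in +/–dox and 319 to 1240 CPM in +dox atria, where 1 library stood above the rest. In +dox over –dox atria 2 of the 43 genes were called and the median log2 fold change was 0.91. T cell markers had 7 of 8 log2 fold changes above 0, none called, and a summed level of 3.3 to 7.33 CPM in MBNL2 against 2.34 to 3.01 CPM in +/–dox atria. Macrophage markers were at 469 to 531 CPM against 410 to 466 CPM with none of 10 called. The part of such cells, and of a response to the vector, was not tested. Genes of antigen presentation had a median of 0.42 with none of 25 called.

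**Figure D4:**
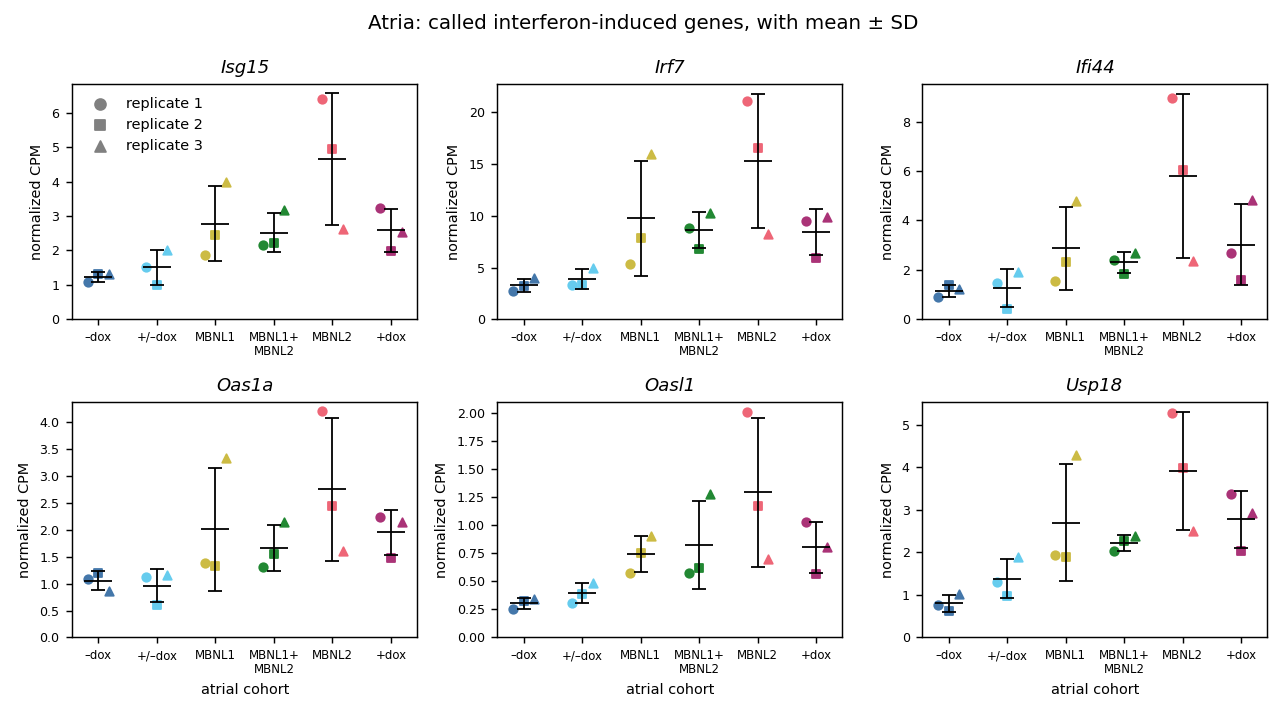
TMM-normalized CPM of the 6 called interferon-induced genes in every atrial library, with 1 symbol per library and the mean ± SD (n = 3) of each cohort; each vertical axis starts at 0. MBNL2 replicate 1 is the highest MBNL2 library in all 6 genes and replicate 3 the lowest, at 2.61 CPM for Isg15 and 8.28 CPM for Irf7.

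Promoters of interferon-induced genes carry repeats of the letters GAAA, to which IRF and STAT factors bind. The start sites of Isg15 (chr4:156200769-156201068, minus strand) and Oas1a (chr5:120907476-120907775, minus strand) are shown because both genes are in the called group and their windows hold a pair of GAAA copies with any 2 letters between them, which are in capitals below, with overlapping matches joined. The sequences run from 250 bases before to 50 bases after the start and are from RefSeq on GRCm38.p6.
Isg15: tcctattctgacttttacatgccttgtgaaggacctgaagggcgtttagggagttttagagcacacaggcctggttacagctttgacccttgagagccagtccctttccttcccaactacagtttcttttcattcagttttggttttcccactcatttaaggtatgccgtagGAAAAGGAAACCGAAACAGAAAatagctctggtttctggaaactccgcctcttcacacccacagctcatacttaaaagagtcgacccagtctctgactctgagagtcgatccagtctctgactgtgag
Oas1a: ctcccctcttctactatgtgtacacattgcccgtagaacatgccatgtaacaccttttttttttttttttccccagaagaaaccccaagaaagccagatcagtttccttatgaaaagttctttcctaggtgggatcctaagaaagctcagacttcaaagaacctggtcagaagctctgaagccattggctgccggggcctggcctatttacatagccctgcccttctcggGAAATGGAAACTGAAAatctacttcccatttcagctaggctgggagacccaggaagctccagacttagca
On either strand the letters were found in 3 places, overlapping, for Isg15 and in 2 for Oas1a. Of the 43 listed genes 30 had such a window and 20 of these held the letters, as did 1131 of all 32851 windows of 300 bases (3.44%). Of the 5 called genes with a window, Irf7, Oasl1 and Ifi44 did not hold these exact letters.

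Cell cycle genes also lay mostly above the withdrawal level, with 31 of 34 above 0, a median of 0.75 and a summed level of 402 to 577 CPM in MBNL2, 275 to 310 CPM in +/–dox and 439 to 547 CPM in +dox atria. Of the 34 genes 2 were called (5.88%, not far from the 3.24% of all genes tested), both of them cyclins of the G1 phase. Ccnd2, cyclin D2, was at 381, 364 and 262 CPM in MBNL2 and 163, 154 and 155 CPM in +/–dox atria (1.09 ± 0.14, adjusted p = 6.56e-06). Ccne1, cyclin E1, was at 4.62, 4.69 and 2.61 CPM against 1.18, 1.28 and 0.85 CPM (1.85 ± 0.27, adjusted p = 1.96e-05). Ccnd2 made up most of the summed gap, and without it the other 33 genes summed to 141 to 196 CPM in MBNL2 and 121 to 155 CPM in +/–dox atria, which overlap. Both calls were kept whichever of the 6 libraries was left out, but the count rose to 6 without +/–dox replicate 3, to 5 without MBNL2 replicate 3 and to 10 without both of these libraries. DESeq2 called 5 genes of the list and limma voom 6. Mki67 and Top2a, which mark dividing cells, were higher in MBNL2 replicates 1 and 2 than in any +/–dox library, but replicate 3 was not (4.90 CPM for Mki67 against 1.86, 2.07 and 6.10 CPM), and neither passed (adjusted p = 0.124 and 0.196).

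None of 43 collagen and matrix genes was called, and their median was -0.01. Of 34 genes of the TGF-β family 1 was called (2.94%), close to the share of all genes tested (3.24%). This gene, Tgfbr3, betaglycan, was at 72.0, 75.6 and 79.3 CPM against 122, 116 and 111 CPM (-0.62 ± 0.08, adjusted p = 1.49e-06). None of 18 genes of the dystrophin complex and none of 25 chamber and conduction transcription factors was called. Besides Pln and Cacna1d, the marker lists gave calls for the lymphatic endothelium, 2 of 6, with Mmrn1 at 1.77 to 2.6 CPM against 4.40 to 5.72 CPM and Reln at 2.11 to 2.72 CPM against 4.16 to 4.89 CPM. Both calls, named after their values were seen (adjusted p = 0.0307 and 0.0464), were lost whichever of the 6 libraries was left out (adjusted p of Mmrn1 0.0505 to 0.143, of Reln 0.0761 to 0.168), and the lymphatic marker Lyve1 was not called. None of the 7 markers of lung and thymus passed the filter on low counts.

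The 85 genes bounded near the withdrawal level are not all back at it, since 11 of them had an adjusted p under 0.05 and their remaining gap ran from -24.7 to 63.8% of the repeat effect, with a median of 22.6%. They had repeat effects of 1.08 or less in log2 fold change, whereas the 364 that stood apart ranged up to 7.13. The class was chosen by a small gap from withdrawal, which favours a low median. No gene of the class was called between MBNL2 and +dox atria either, where edgeR called Ckmt2 alone. Ucp2, Cpn2, Mrvi1, Lrrc75b and Emilin2 were among the members of the class with the largest repeat effects. Ucp2, an uncoupling protein of mitochondria, was at 414, 280 and 286 CPM in MBNL2, 403, 407 and 350 CPM in +/–dox and 213, 240 and 179 CPM in +dox atria, and its interval against +/–dox ran from -0.57 to 0.08. Mrvi1, a partner of the inositol trisphosphate receptor, was at 163, 206 and 202 CPM in MBNL2, 191, 215 and 160 CPM in +/–dox and 246, 284 and 253 CPM in +dox atria. In Mrvi1 the log2 fold change against +/–dox was 0.01 with an interval from -0.28 to 0.31. Cpn2, a carboxypeptidase subunit, was at 2.66 to 3.12 CPM in MBNL2 and 1.86 to 3.05 CPM in +/–dox atria. Emilin2, an elastic fibre protein, kept 38.8% of its repeat effect (80.7, 97.7 and 102 CPM against 77.7, 75.4 and 65.3 CPM), so that its groups did not overlap although the interval was inside 1.5-fold.

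A further 36 of the 623 genes (5.78%) differed from withdrawal while their repeat effect lay within 1.5-fold, 13 higher and 23 lower, beside 45.7% of all tested genes with a repeat effect so bounded. Direction was nevertheless shared with the repeat effect in 33 of the 36, beside 73.9% of all tested genes. Stum, a mechanosensory gene family member, was at 10.5, 14.1 and 10.9 CPM in MBNL2 and 22.4, 23.5 and 19.8 CPM in +/–dox atria (-0.89 ± 0.22, adjusted p = 0.00791), while –dox atria held 11.1 to 14.0 CPM and +dox atria 11.2 to 14.2 CPM. Here the +/–dox libraries lay above all libraries of the MBNL2, +dox and –dox cohorts. Shank1, a synaptic scaffold, was at 8.71, 6.96 and 6.79 CPM against 3.47, 4.13 and 5.06 CPM (0.82 ± 0.19, adjusted p = 0.00435), with 5.07 to 6.72 CPM in –dox atria. Baiap2, a regulator of actin, was at 17.2, 12.4 and 13.7 CPM against 7.97, 7.90 and 9.01 CPM (0.80 ± 0.20, adjusted p = 0.00972). The calls of Stum and Baiap2 were lost without MBNL2 replicate 1 (adjusted p = 0.0562 and 0.0799).

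**Figure D5:**
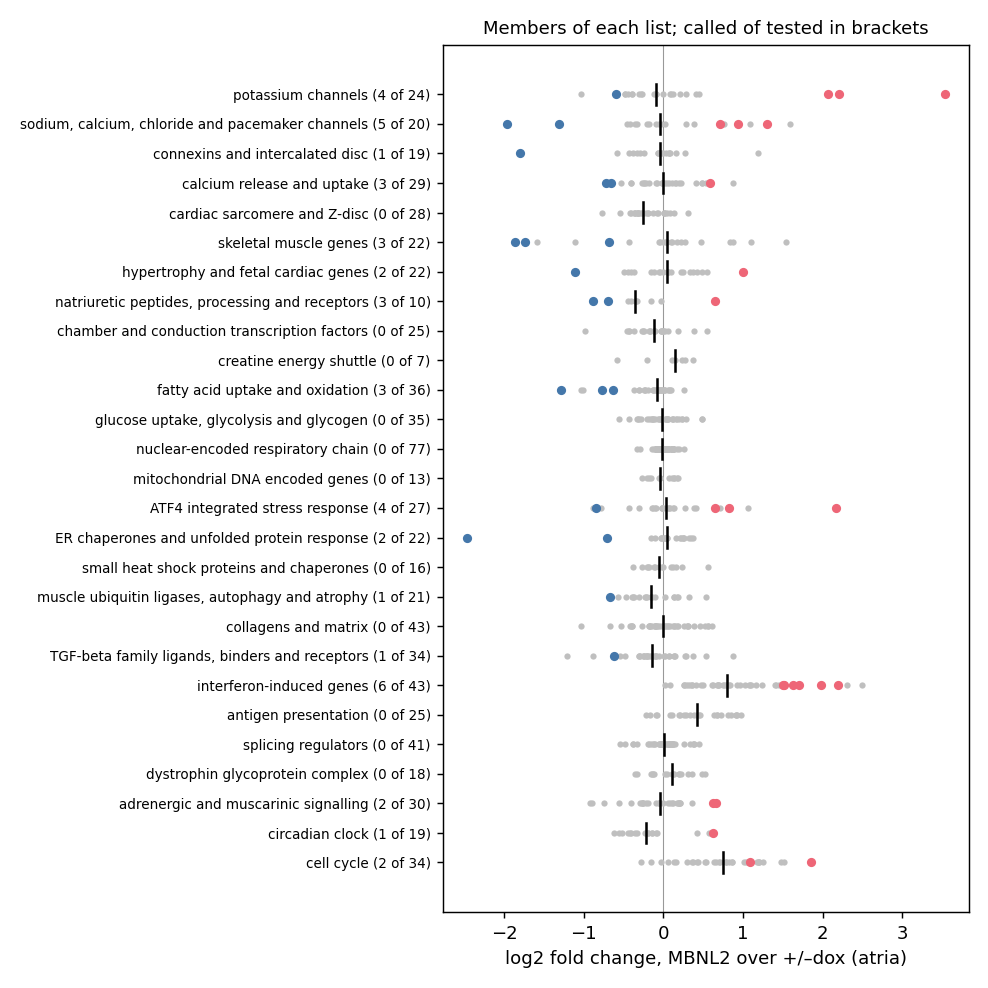
Log2 fold change of MBNL2 over +/–dox for every tested gene of each pathway list (marker and ribosomal lists are not drawn), with called genes in red (higher) or blue (lower), other genes in grey and the list's median as a black bar. Among the lists drawn, the medians of the interferon-induced (0.80) and cell cycle (0.75) genes lie furthest to the right and that of the natriuretic list (-0.35) furthest to the left.

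The other vector cohorts gave fewer calls against the same +/–dox libraries, 232 (1.21%) for MBNL1 and 328 (1.71%) for MBNL1+MBNL2. All 3 MBNL1+MBNL2 libraries were male and of the second name series, whereas +/–dox held 1 female library and 2 of the first series, so that cohort, sex and name series were mixed in this comparison. With 1 library left out the counts were 139 to 195 for MBNL1 (139 and 144 without MBNL1 replicate 1 or 2, 148 without +/–dox replicate 1) and 196 to 435 for MBNL1+MBNL2 (196 and 214 without its replicate 2 or 3). With the series as a covariate 645 genes were called for MBNL1+MBNL2. The direct test of MBNL2 against MBNL1 found the difference in Cdnf alone, so that the lower counts do not show that the cohorts differ. Over the 309 genes higher in MBNL2 the median log2 fold change over +/–dox was 0.86 in MBNL2, 0.62 in MBNL1 and 0.67 in MBNL1+MBNL2 atria, and over the 314 lower genes it was -0.85, -0.59 and -0.62. The genes were chosen by their MBNL2 values, which favours the first of each. Against never-induced –dox atria, MBNL2 atria differed in 811 genes (4.22%).

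In the ventricle, the other tissue of the series, MBNL2 and +/–dox mice differed in 302 genes (1.57%), and in 156 to 276 with 1 library left out (156 without +/–dox replicate 2, 183 without +/–dox replicate 1 and 186 without MBNL2 replicate 1). A test of whether the MBNL2 against +/–dox difference depends on the tissue called 10 genes (0.052%), with 1452 at an unadjusted p below 0.05. According to the study, atria and ventricles came from the same mice, which this model does not use. With cohort and replicate number taken as the animal and fitted as a block, a pairing that the labels do not state, 35 genes were called, among them 9 of the 10 (not Igfbpl1, adjusted p = 0.0677). Gja5 was among them, since it was at 5.96 ± 1.11 CPM in MBNL2 and 5.35 ± 1.69 CPM in +/–dox ventricles, a log2 fold change of 0.16 beside -1.80 in the atria (adjusted p of the difference = 0.00549). Dlg4, the synaptic scaffold PSD-95, rose by 1.37 in the atria (39.1, 45.3 and 42.1 CPM against 15.9, 16.7 and 16.3 CPM), beside 0.27 in the ventricle (adjusted p = 0.00549). Both of these tissue differences were called in all 12 fits that left out 1 library. Ryr2 differed by -0.72 in both tissues, and Vxn, Rimkla, Coq8a and Cdnf were called in both, with no called difference between tissues (adjusted p from 0.749 to 0.950, and from 0.494 to 0.917 with the block).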

How the data were processed

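Poly(A) RNA from atria and ventricles was sequenced as stranded paired-end libraries. According to the study's methods, the authors aligned reads with STAR 2.7.10b to mm10 and quantified GENCODE M25 genes with RSEM 1.3.1, and whether RSEM used strand is not given in the sources used here. The authors deposited a table of RSEM expected counts and one of TPM (length-scaled transcript abundance) for 36 libraries, by gene symbol, of which 53292 of 55291 (96.4%) matched a GENCODE annotation of GRCm38, the source of the coordinates given. Symbols shared by several genes, paralogs and overlapping genes were not separated further, and the human vector and repeat transcripts have no symbol of their own.

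Expected counts were rounded, filtered (filterByExpr) and scaled (TMM) in edgeR 4.0.16 (R 4.3.3). One quasi-likelihood model with a mean for each of the 12 groups of tissue and cohort was fitted over all 36 libraries to 19231 genes, p-values were adjusted (Benjamini-Hochberg) over all of them, and genes were called at an adjusted p below 0.05 and a fold change of 1.5 or more. CPM values are TMM-normalized and compare a gene between libraries, not genes with each other, and TPM was used for the tissue check. Standard errors and 95% intervals come from the quasi-likelihood statistic. The labels call the 3 libraries of a group biological replicates. The 6 libraries held 55 to 79.6 M counts, and RNA fragments were not tagged as single molecules.

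Named genes were the 12 largest rises and falls among called genes with a mean of at least 1 CPM and no overlap between the groups (predicted genes and pseudogenes left out), the 6 repeat-responsive genes with the largest repeat effect in each of the classes apart from and within 1.5-fold of withdrawal, the MBNL genes and Dmpk, the genes that the study discusses for expression, up to 5 called members of each list, and 4 of the called genes whose repeat effect lay within 1.5-fold. Some genes that this rule names are not reported here. Uncalled list members and other genes given with values were chosen after those were seen. The members and all lists were chosen with earlier results of these data known. The tests were tried on simulated counts first. Alternatives were other normalizations and filters, DESeq2 1.42.0, limma 3.58.1 (voom), a test against 1.5-fold (glmTreat), subsets of libraries, covariates and leaving out each library. Promoter sequences are from RefSeq on GRCm38.p6. Figures were drawn with matplotlib 3.10.9.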

Additional observations from a re-analysis of the deposited data

Results flagged for a closer look

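In 10 genes the MBNL2 against +/–dox difference depended on the tissue (edgeR's interaction test), given here as the log2 difference in the atria minus that in the ventricle. The widest were Aldh3b3 at -2.03 (atria -1.28, ventricle 0.75, adjusted p = 0.0365), Gja5 at -1.96 (adjusted p = 0.00549) and Igfbpl1 at -1.86 (atria 0.74, ventricle 2.6, adjusted p = 0.0182). Rims4, a protein of synaptic vesicle release, differed by 1.65 (atria 1.97, ventricle 0.32, adjusted p = 0.0319), Dlg4 by 1.10 (adjusted p = 0.00549), Tesc by 1.08 (atria 0.86, ventricle -0.22, adjusted p = 0.0331) and the predicted gene Gm7694 by -1.0 (atria -1.30, ventricle -0.30, adjusted p = 0.00549). Smaller differences were those of Eef1akmt1 at 0.71 (atria 0.71, ventricle 0.00, adjusted p = 0.0424), Dip2a at 0.64 (atria 1.18, ventricle 0.53, adjusted p = 0.00960) and Rbm19 at -0.62 (atria -0.72, ventricle -0.10, adjusted p = 0.0319). Over the 12 fits that left out 1 library, Gja5, Dlg4 and Gm7694 were called in all 12, Dip2a in 8, Igfbpl1 in 7, Aldh3b3 in 4, Rbm19 and Rims4 in 3, Tesc in 2 and Eef1akmt1 in 1, with adjusted p up to 0.201. With both tissues of a mouse fitted as a block, by replicate number, all of these except Igfbpl1 (adjusted p = 0.0677) were called.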

How the results depend on the processing

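Of 1307 refitted values for 77 named genes, 1102 kept their direction and side of the threshold, 183 lost the call, 9 gained one (Ckmt2 and Hcn4) and 13 changed sign, the cause of which was not tested. With adjusted p alone the calls in MBNL2 against +/–dox were 2124, with voom 1053 and with glmTreat 39, and leaving out 1 library gave 396 to 666. For –dox against +dox these were 3060, 1725, 155 and 696 to 1023. For +/–dox against +dox they were 2426, 1380, 87 and 486 to 796. For MBNL1 against +/–dox they were 884, 579, 18 and 139 to 195, with 354 in the 18 atrial libraries alone. For MBNL1+MBNL2 they were 1320, 707, 20 and 196 to 435, with 520 in the atrial libraries alone and 645 with the library-name series as a covariate. For MBNL2 against –dox they were 2510, 1280, 90 and 571 to 834, and in the ventricle 1036, 560, 17 and 156 to 276. MBNL2 against +dox gave 2 with adjusted p alone, 9 with DESeq2, 0 with glmTreat or only the libraries compared, and 1 to 7 with 1 library left out. MBNL2 against MBNL1 gave 2 with adjusted p alone, without a filter, in the atrial libraries or with the covariate, 7 with DESeq2, 10 with voom, 0 with glmTreat, only the libraries compared or without replicate 3 of both groups, and 0 to 2 with 1 library left out. The tissue difference gave 38 with DESeq2, 50 with voom, 0 with glmTreat, 20 with the covariate, 35 with each mouse's tissues as a block (replicate block across tissues, added after seeing the data), 5 without replicate 3 and 3 to 14 with 1 library left out. With a 90% interval 141 genes were within 1.5-fold of withdrawal, and DESeq2 placed 2 on its far side. The median residual was 56.8 to 66.9% with 1 library left out and 61.5% under the other size factors, an alternative chosen after seeing the data, as were the counts per list and the fits of genes chosen later without 1 library. Sign changed in Mrvi1 with voom (-0.0165), without replicate 3 of both groups (-0.138) and without 1 library (-0.0953 to 0.133), in Lrrc75b likewise (-0.0218, -0.0326 and -0.119 to 0.113), and without replicate 3 of both groups or 1 library in Cpn2 (-0.142 and -0.0677 to 0.280) and Mbnl3 (-0.407 and -0.337 to 0.869). With the replicate number as a block, MBNL2 against +/–dox gave 672 calls, 604 of them shared with the 623, and MBNL2 against MBNL1 gave 3. The numbers were not taken to pair MBNL2 with +/–dox atria, since the study lists different mice for these cohorts. Deviations of their same-numbered libraries correlated at 0.05, 0.13 and 0.20, and replicate 1 of MBNL2 correlated better with +/–dox replicate 2 (0.08). Between atria and ventricles, same-numbered libraries correlated at 0.14, 0.11 and 0.19 in MBNL2 mice, and other pairs at -0.15 to 0.01. In +/–dox mice these values were 0.08, 0.06 and 0.20, and -0.14 to 0.07. Kcne1 and Mbnl3 were below 1 CPM in all of the 6 libraries, and the part of depth in their values was not tested.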

Other observations

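Among lists not described above, adrenergic and muscarinic signalling had 2 of 30 genes called (6.67%, beside 3.24% of all genes tested). Grk5, a receptor kinase, was at 152, 133 and 103 CPM in MBNL2 and 84.7, 91.6 and 74.4 CPM in +/–dox atria (log2 fold change 0.63, edgeR adjusted p = 0.00624), and its call was lost without MBNL2 replicate 1 (0.0670) or, by size, +/–dox replicate 3 (0.0466). Ppp1r1a, protein phosphatase inhibitor 1, was at 10.9, 13.0 and 12.1 CPM against 8.06, 6.83 and 7.87 CPM (0.66, adjusted p = 0.0141), and lost its call without MBNL2 replicate 2 (0.0658) or +/–dox replicate 2 (0.0619). Both lay between withdrawal and +dox, with gaps of 64.8 and 44.4% of the repeat effect.

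Of 19 circadian clock genes Clock alone was called (5.26%), close to the share of all genes tested (3.24%). Clock was at 92.1, 72.0 and 66 CPM against 47.7, 47.0 and 54.1 CPM (0.63, adjusted p = 0.000524). Without MBNL2 replicate 1 its log2 fold change was 0.48, under the limit. The median of the list was -0.21, and 3 of its 19 genes were above 0. The hour of tissue collection is not in the labels, and its part was not tested. Of 21 genes of muscle ubiquitin ligases, autophagy and atrophy 1 was called (4.76%), again close to the 3.24% of all genes tested. This gene, Klhl40, a protein that stabilises thin filaments, was at 11.5, 10.1 and 9.99 CPM against 15.3, 16.8 and 17.9 CPM (-0.66, adjusted p = 0.00413). Its call was kept whichever of the 6 libraries was left out.

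Markers of Schwann cells and neurons had all 6 tested members below 0 (median -0.78) with none called, at a summed 8.57 to 11.7 CPM in MBNL2, 15.6 to 16.7 CPM in +/–dox, 10.9 to 11.4 CPM in +dox and 16.2 to 17.7 CPM in –dox atria.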
